A study of Caenorhabditis elegans with 15 samples.

Results

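The comparison described here set single mutants of a pair of paralogous genes, fbf-1 and fbf-2, against each other in whole adult Caenorhabditis elegans. Its members were the 3 fbf-1 libraries and the 3 fbf-2 libraries, 6 of the 15 libraries of the series, joined by gene identifier and read as fbf-1 over fbf-2. The labels give the genotypes as fbf-1 and fbf-2 without allele names, the stage as adult, the tissue as whole worm and the growth as solid media. The other 9 libraries were wild-type N2 worms (WT), the strain 3xlnc, mutant in linc-4, linc-7 and linc-29 (genes for long intervening non-coding RNAs), and the strain fbf-1 3xlnc, which joins the fbf-1 mutation to those, each with 3 libraries. The fbf-1 and fbf-1 3xlnc libraries are labelled polyA RNA and belong to a later deposit, whereas the label total RNA stands on WT, fbf-2 and 3xlnc, although one mRNA library kit is named for all. Genotype, RNA label and deposit therefore cannot be told apart between fbf-1 and fbf-2, and this holds for every value below. Whether replicate libraries stem from separate worm cultures is not stated, so the p-values rest on a spread among libraries that could be technical only.

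FBF-1 and FBF-2 are RNA-binding proteins of the PUF (Pumilio and FBF) family. They bind short elements in the 3′ untranslated regions of germline mRNAs, repress those mRNAs and keep germline stem cells from entering meiosis. Worms that lack either protein alone keep a germline and are fertile, while worms that lack both lose their germline stem cells. Their known target mRNAs include regulators of meiotic entry, components of the synaptonemal complex, cyclins, regulators of the sperm or oocyte fate, and the fbf mRNAs themselves.

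Total counts were 21731471 to 38453738 in the fbf-1 libraries and 18359546 to 23946404 in the fbf-2 libraries. Within a group, log2 levels correlated at 0.9938 to 0.9945 between fbf-1 libraries and at 0.9908 to 0.993 between fbf-2 libraries across genes. Ribosomal RNA genes took 0.218 to 1.0% of counts in fbf-1, and 0.265, 0.164 and 2.81% in fbf-2 replicates 1, 2 and 3. Levels are given as CPM, the counts of a gene divided by its library total in units of 1e6 after TMM scaling over all 15 libraries, and fold changes as log2 of fbf-1 over fbf-2 with their standard error. In RNA from whole worms, fewer cells of a type and less RNA per cell cannot be told apart.

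The mutated genes followed the labels. The fbf-1 gene (WBGene00001401, chromosome II, 6078263 to 6080843, minus strand, WBcel235) was at 8.40, 8.51 and 8.40 CPM in the fbf-1 libraries and at 65.3, 65.6 and 69.5 CPM in the fbf-2 libraries. Its log2 fold change was -2.98 (SE 0.0739, edgeR quasi-likelihood adjusted p = 1.09e-09). The fbf-2 gene (WBGene00001402, chromosome II, 6088863 to 6091480, minus strand) was at 29.7, 28.5 and 33.7 CPM in fbf-1 and at 5.65, 6.69 and 6.45 CPM in fbf-2. Its log2 fold change was 2.3 (SE 0.107, adjusted p = 1.21e-07). In both cases the groups were far from overlapping, and counts remained on each gene in its own mutant. Because the coding regions of the pair are close copies, reads may have been split or merged between them by the counting. The pair was not symmetric against WT: fbf-1 stood at 32.6 to 42.0 CPM in WT, below all 3 fbf-2 libraries, while fbf-2 stood at 24 to 33 CPM in WT, which overlaps the range in fbf-1 worms.

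**Figure D1:**
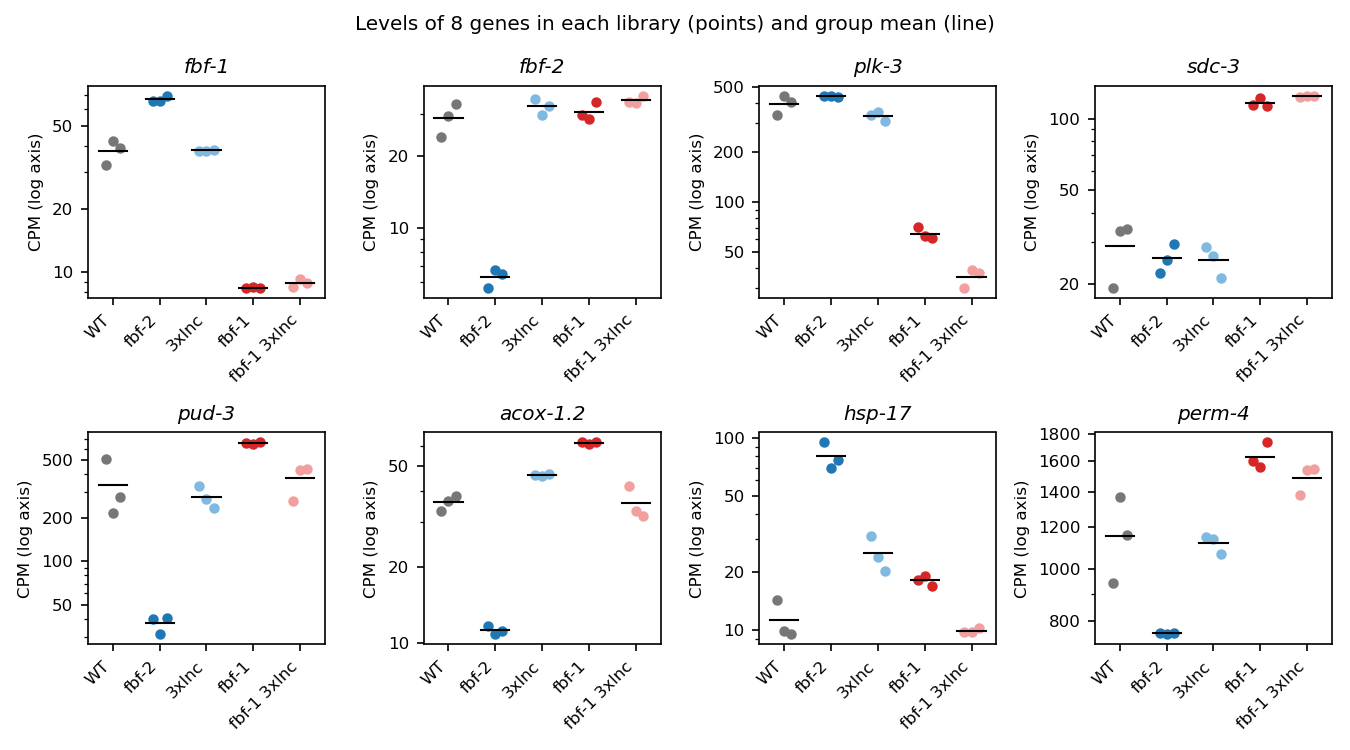
Levels of 8 genes in each of the 15 libraries as CPM on log axes, with points for libraries and a line for each group mean. The mutated genes fbf-1 and fbf-2 are lowest in their own mutants, plk-3 and sdc-3 separate fbf-1 and fbf-1 3xlnc from the 3 other strains, and pud-3, acox-1.2, hsp-17 and perm-4 place fbf-2 apart from the rest.

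The single mutants differed at a large number of genes, mostly by small amounts. Of 13525 genes tested, 2849 were higher in fbf-1 (21.1%) and 2812 were lower (20.8%) at an adjusted p under 0.05. These shares are the background for the list counts of this comparison below. At least 2-fold differences were found for 554 genes higher (4.1%) and 251 lower (1.86%). The groups did not overlap in CPM at 7322 genes (54.1%). The balance of directions moved with the scaling: upper-quartile scaling gave 3588 higher and 2215 lower.

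Fold changes rose with gene length. Across 13516 genes with an annotated exon length, Spearman's rho between length and log2 fold change was 0.401, a description across genes of the same 6 libraries. When genes were sorted into 10 equal bins of length, the median log2 fold change was -0.266 in the shortest bin (up to 589 bases) and 0.326 in the longest (from 3224 bases). The relation of level to length also differed between libraries of one group: it was -0.456, -0.278 and -0.121 in fbf-2 replicates 1, 2 and 3, 0.211 to 0.267 in fbf-1, and -0.568, 0.419 and 0.358 in WT. A fit that took each library's length trend out, added after the data were seen, called 2543 genes higher and 3584 lower. Counts from it are given below as the length-adjusted fit wherever they move a group by more than 1.5 times or turn its balance. It also removes any difference that truly follows length.

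**Figure D2:**
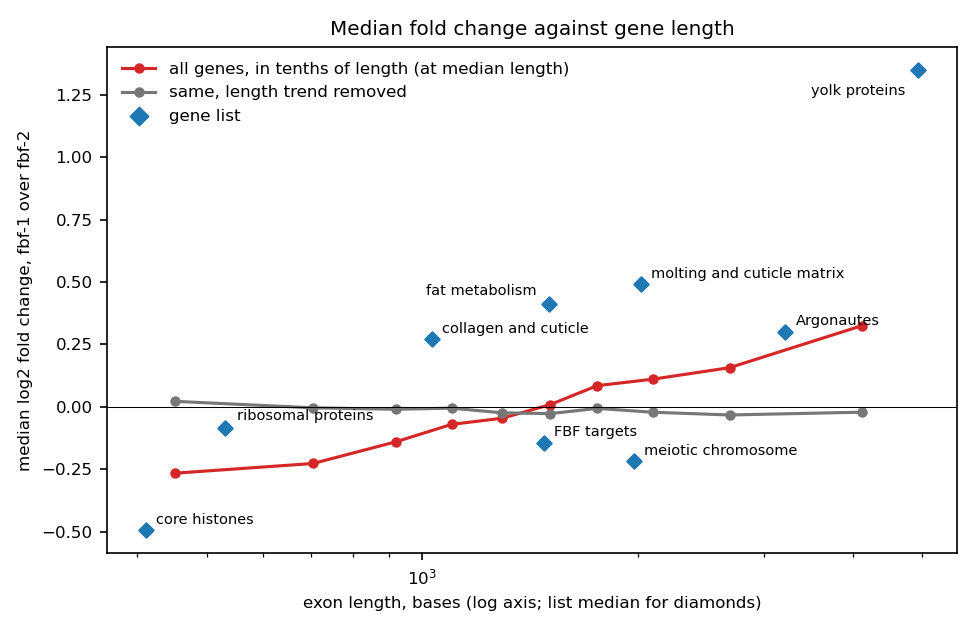
Median log2 fold change of fbf-1 over fbf-2 (vertical axis) against exon length in bases (log axis), for 10 length bins of all tested genes before and after the length trend was removed, and for 9 gene lists at their median length. The line for all genes climbs from -0.266 to 0.326, while meiotic chromosome genes lie below it at -0.216 and yolk protein genes above it at 1.35.

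Apart from the mutated pair, 9 genes of the PUF family were tested. Of these, 2 were higher, 1 was lower and 6 did not pass, where 41.9% of all genes tested were called in either direction. The gene puf-4 was near 0 in all libraries and was not tested. The gene puf-8, which acts with the fbf genes in germline stem cells and in the sperm to oocyte switch, was at 138, 138 and 142 CPM in fbf-1 and at 194, 183 and 179 CPM in fbf-2, with no overlap. Its log2 fold change was -0.41 (SE 0.0569, adjusted p = 0.000301). The somatic family member puf-9 was higher by 0.40 (adjusted p = 0.00727) and puf-10 by 0.36 (adjusted p = 0.00427). With upper-quartile scaling 6 of the 9 were higher, so the count of rises depends on the scaling, whereas puf-8 was the lower gene under each scaling.

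Known FBF target mRNAs were more often lower than higher in fbf-1. Of the 21 listed targets other than the fbf genes, 10 were lower, 2 were higher and 9 did not pass. Their median log2 fold change was -0.143 against 0.0346 over all genes. All 10 falls were under 2-fold. Of all genes tested, 20.8% were lower and 21.1% higher. Of genes that the authors flag as germline-enriched, 34% were lower and 8.7% higher. The MAP kinase phosphatase gene lip-1 was at 101, 100 and 98.4 CPM in fbf-1 and at 141, 144 and 133 CPM in fbf-2 (log2 -0.48, SE 0.0577, adjusted p = 0.000118). The groups did not overlap. Genes of the synaptonemal complex and its axis made up 5 of the 10: syp-2 at -0.62, syp-3 at -0.41, htp-1 at -0.33, him-3 at -0.31 and htp-2 at -0.26. The central region gene syp-2 was at 47, 44 and 50.4 CPM in fbf-1 and at 79.4, 69.8 and 68.6 CPM in fbf-2 (SE 0.0736, adjusted p = 0.000107). The call of htp-2 was lost without fbf-1 replicate 1 or 2, without fbf-2 replicate 2, and with upper-quartile scaling.

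The remaining lower targets were the cyclin-dependent kinase inhibitor gene cki-2 (-0.32), the cyclin B gene cyb-2.2 (-0.24, adjusted p = 0.0557 without fbf-1 replicate 2), and sygl-1 and lst-1, Notch targets whose proteins partner with FBF. The log2 fold change was -0.29 for sygl-1 (adjusted p = 0.00783) and -0.20 for lst-1 (adjusted p = 0.0145). The lst-1 call was lost with upper-quartile scaling and without fbf-1 replicate 1 or 2 or fbf-2 replicate 2, and the sygl-1 call in the length-adjusted fit (adjusted p = 0.144). The higher targets were fog-3 and egl-4. The Tob family gene fog-3, needed for the sperm fate, was at 7.65, 7.67 and 6.92 CPM in fbf-1 and at 5.49, 4.24 and 4.52 CPM in fbf-2 (log2 0.63, SE 0.134, adjusted p = 0.00337), against 0.258 to 0.915 CPM in WT. The groups did not overlap, and both mutants were above all WT libraries. The cGMP-dependent protein kinase gene egl-4 was higher by 0.43 (adjusted p = 0.00174), and by 0.14 in the length-adjusted fit. The best known target, the meiotic entry regulator gld-1, was at 1130, 1130 and 1180 CPM in fbf-1 and at 983, 1090 and 1090 CPM in fbf-2, a log2 fold change of 0.13 (adjusted p = 0.201). The sperm-fate genes fem-3 (0.00076) and fog-1 (0.01) also did not pass. The linc genes mutated in 3xlnc are intact in both groups here: linc-4 (-0.55) and linc-29 (-0.76) were lower in fbf-1 and linc-7 (0.46) higher, and each call was lost in at least 1 alternative.

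**Figure D3:**
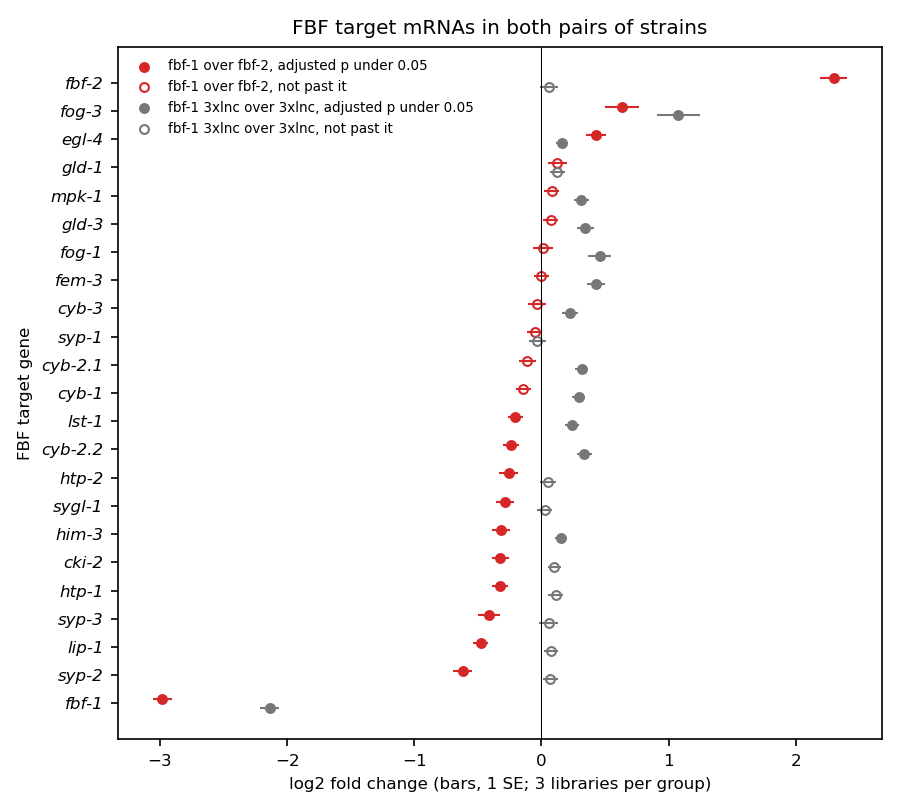
Log2 fold changes of the 23 listed FBF targets, the fbf genes included, with bars of 1 SE over 3 libraries per group, for fbf-1 over fbf-2 and for fbf-1 3xlnc over 3xlnc. Filled points passed an adjusted p under 0.05; in the single mutants 11 passed below 0 and in the other pair 12 passed above it.

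Of 20 genes for FBF partners and the deadenylation machinery, 5 were higher (25%) and 3 lower (15%), beside 21.1% and 20.8% of all genes tested. The count turned to 1 higher and 9 lower in the length-adjusted fit. The dynein light chain gene dlc-1, whose product binds FBF-2, was at 294, 291 and 294 CPM in fbf-1 and at 484, 399 and 372 CPM in fbf-2 (log2 -0.51, SE 0.0872, adjusted p = 0.001). Its log2 fold change was -0.24 in the length-adjusted fit. The CCR4-NOT scaffold gene let-711 was higher by 0.62 (adjusted p = 0.00151), but not in the length-adjusted fit (0.09, adjusted p = 0.144). For the cytoplasmic poly(A) polymerase gene gld-2, whose call was lost with all 15 libraries in the fit (adjusted p = 0.125), the direction itself turned in the length-adjusted fit, from 0.33 (adjusted p = 0.0078) to -0.12 (adjusted p = 0.0454).

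Genes for meiotic chromosomes were lower in fbf-1. Of 53 tested, 33 were lower, 2 were higher and 18 did not pass, with a median of -0.216. These genes have a median exon length of 1976 bases, above the 1416 bases of protein-coding genes, so they lie against the length trend; the length-adjusted fit called 43 lower and 1 higher. Upper-quartile scaling gave 23 lower and 5 higher. The smallest adjusted p-values belonged to syp-2, to the central region gene syp-4 (log2 -0.41, adjusted p = 0.000352 for 120, 123 and 122 CPM against 155, 165 and 166 CPM) and to slx-1, a structure-specific nuclease subunit gene (-0.49, adjusted p = 0.00011). In each case the groups did not overlap.

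Other germline lists had shares of lower genes near the 20.8% of all genes tested. Of 43 cell cycle and replication genes, 9 were lower (20.9%) and 4 higher. The GINS complex genes psf-2 (-0.59) and psf-3 (-0.49) and the origin recognition gene orc-4 (-0.38) were among the lower ones. Upper-quartile scaling turned the balance to 7 lower and 8 higher, and the length-adjusted fit gave 18 lower and 0 higher. Of 22 stem cell and Notch genes, 5 were lower (22.7%) and 4 higher, with a median of 0.0307. The γ-secretase subunit genes pen-2 (-0.62) and aph-1 (-0.39) were lower along with puf-8. Upper-quartile scaling turned this balance to 7 higher and 4 lower, and the length-adjusted fit gave 10 lower and 0 higher. Of 15 regulators of meiotic entry, 3 were lower and 1 higher, with a median of 0.0718; there were 2 lower and 3 higher under upper-quartile scaling and 13 lower in the length-adjusted fit. They included prom-1, an F-box gene that drives meiotic entry, at 65.5, 67.8 and 66.8 CPM in fbf-1 and 93.1, 85.4 and 89.2 CPM in fbf-2 (log2 -0.42, adjusted p = 0.000258). Another lower gene of this list was fog-2, an F-box gene named for the feminised germline of its mutants rather than for meiotic entry (-0.46, adjusted p = 0.000463).

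The authors' table flags genes as germline-enriched. Of 2553 flagged genes tested, 869 were lower (34%) and 222 higher (8.7%), while of 10972 genes without the flag 1943 were lower (17.7%) and 2627 higher (23.9%). The medians were -0.0904 and 0.0774. The length-adjusted fit gave 1228 lower and 139 higher among flagged genes, and upper-quartile scaling 674 and 361. Among genes flagged as bound by FBF-2, 562 of 1848 were lower (30.4%) and 269 higher (14.6%), beside 20.8% and 21.1% of all genes tested. The length-adjusted fit gave 879 lower and 151 higher. With upper-quartile scaling the balance turned to 419 lower and 441 higher. The sources used here do not say how the authors set these flags.

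Sex determination genes included some of the larger differences in the germline lists. Of 25 tested, 11 were higher and 3 lower; the length-adjusted fit gave 6 higher and 7 lower. The gene sdc-3, whose zinc finger protein loads the dosage compensation complex and represses male development, was at 114, 122 and 113 CPM in fbf-1 and at 22.2, 25.2 and 29.5 CPM in fbf-2 (log2 2.19, SE 0.0958, adjusted p = 8.12e-08). The gene xol-1, the early switch that promotes male development, was at 4.89, 5.24 and 4.37 CPM against 1.9, 2.2 and 2.01 CPM (log2 1.25, SE 0.158, adjusted p = 0.000165). The calpain gene tra-3, which promotes female fates, was at 71.7, 73.9 and 68.9 CPM against 34.4, 35.7 and 36.8 CPM (log2 1.01, SE 0.0648, adjusted p = 1.32e-06). None of the 3 overlapped between the groups, and all 3 remained higher in the length-adjusted fit.

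Markers of sperm were scarce and markers of oocytes plentiful in both groups, as in adult hermaphrodites. Major sperm protein genes summed to at most 189 CPM in fbf-1 and 163 CPM in fbf-2, and 1 of 26 tested was called. That gene, msp-36, was at 15.1, 13.5 and 9.78 CPM in fbf-1 and had 1 count in all fbf-2 libraries together. The ratio of CPM was 844 with an exact 95% interval of 151 to 33400, which covers counting error only. The length-adjusted fit called 5 major sperm protein genes higher, and the filter of at least 10 counts in every library called 0 higher. Without fbf-2 replicate 1, 2 were lower. Close copies among these genes make the split of reads between them uncertain. Of 43 other spermatogenesis genes, 10 were higher (23.3%) and 4 lower (9.3%), beside 21.1% and 20.8% of all genes tested. With all 15 libraries in the fit 3 were higher. Oocyte and eggshell genes were balanced at 6 higher and 6 lower of 36 (16.7% each). However, upper-quartile scaling gave 10 and 3 and the length-adjusted fit 4 and 16. Without fbf-1 replicate 1 or 2 the count lower was 2, without fbf-2 replicate 2 it was 3, and without fbf-2 replicate 3 the count higher was 10. The vitelline layer genes perm-2 and perm-4, needed for the eggshell permeability barrier, were among the higher ones. In fbf-1 perm-4 was at 1600, 1560 and 1740 CPM and in fbf-2 at 759, 753 and 758 CPM (log2 1.11, SE 0.073, adjusted p = 1.48e-06). Early embryonic genes were higher more often than lower, at 18 (52.9%) and 2 (5.88%) of 34. The count higher was 10 without fbf-1 replicate 2 and 11 without fbf-1 replicate 3.

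Yolk protein genes were higher in fbf-1 throughout: all 6 vit genes passed, with a median log2 fold change of 1.35. These genes are made in the intestine and their proteins are loaded into oocytes. The levels of vit-5 were 22100, 22200 and 24400 CPM in fbf-1 and 7670, 8670 and 9700 CPM in fbf-2 (log2 1.40, SE 0.12, adjusted p = 9.36e-06). WT libraries held 8400 to 16200 CPM and so stood between the mutants or overlapped fbf-2. The summed level of the 6 genes was 123000 to 136000 CPM in fbf-1 against 44700 to 57400 CPM in fbf-2. Their median exon length was 4935 bases, on the side of the trend that was higher in fbf-1; the length-adjusted fit left all 6 higher with a median of 0.976. Some of the vit genes are also close copies of one another, and their sequence identity was not computed here.

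Genes of fat metabolism were called higher in fbf-1 more often than lower. Of 91 tested, 45 were higher, 9 were lower and 37 did not pass, with a median of 0.414, and the length-adjusted fit gave 43 and 12. One of them, acox-1.2, encodes an acyl-CoA oxidase that shortens side chains of ascaroside pheromones in peroxisomes; it was at 62.3, 61.3 and 62.2 CPM in fbf-1 and at 11.7, 10.8 and 11.1 CPM in fbf-2 (log2 2.46, SE 0.0707, adjusted p = 2.7e-09). WT lay between at 33.4 to 38.2 CPM, apart from both groups. The acyl-CoA synthetase gene acs-3 was higher by 1.92 and the lysosomal lipase gene lipl-1 by 1.86. Intestinal genes as a list were balanced, at 7 higher (28%) and 6 lower (24%) of 25, and at 10 and 9 in the length-adjusted fit. The protease genes asp-4 (1.53) and cpr-6 (1.24) and the gut esterase gene ges-1 (0.92) were among those higher. Of the 6 lower genes, which are not named here, 1 was at least 2-fold lower.

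Of 129 collagen genes tested, 45 were higher, 14 were lower and 70 did not pass. Of 87 genes of molting and the cuticle matrix, 42 were higher, 4 were lower and 41 did not pass. The collagen gene col-135 was at 130, 133 and 120 CPM in fbf-1, 19.5, 19.3 and 21.6 CPM in fbf-2 and 39.4 to 53.8 CPM in WT (log2 2.67, SE 0.074, adjusted p = 2.25e-09). None of these groups overlapped. The patched-related gene ptr-13 was higher by 1.5, while the hedgehog-related gene grd-10 was lower by 1.53, from 11.1, 12.3 and 11 CPM in fbf-2 to 4.81, 4.21 and 3.00 CPM in fbf-1. The count of collagen genes lower went to 25 without fbf-2 replicate 1, and with all 15 libraries in the fit 20 were higher and 7 lower.

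Of 147 innate immunity genes, 55 were higher (37.4%) and 27 lower (18.4%), beside 21.1% and 20.8% of all genes tested. Of 137 detoxification genes, 51 were higher (37.2%) and 20 lower (14.6%). The C-type lectin genes clec-223 (2.42), clec-166 (2.2) and clec-41 (1.39) had the smallest adjusted p-values of the first list, and the UDP-glucuronosyltransferase genes ugt-43 (2.92), ugt-63 (1.19) and ugt-44 (0.95) of the second. Neuronal genes were 8 higher (30.8%) and 0 lower of 26. Muscle genes were 13 higher (38.2%) and 6 lower (17.6%) of 34, turning to 6 and 15 in the length-adjusted fit. The twitchin gene unc-22 went from 0.77 to 0.02 (adjusted p = 0.713) in that fit, whereas the troponin I gene tni-1 stayed lower (-1.19 and -1.11).

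Of 20 heat shock and chaperone genes tested, 11 were lower in fbf-1, 0 were higher and 9 did not pass. The small heat shock gene hsp-16.2 was at 2.05, 2.43 and 2.35 CPM in fbf-1 and at 91.1, 57.6 and 86.6 CPM in fbf-2 (log2 -5.10, SE 0.186, adjusted p = 2.51e-08). The WT libraries were at 0.102 to 0.61 CPM, below both mutants. The neighbouring gene hsp-16.41 differed by -4.93, the inducible hsp-70 by -3.95 and hsp-17 by -2.15. For hsp-17 the fbf-1 libraries held 18.3, 19.2 and 17 CPM and the fbf-2 libraries 94.9, 69.8 and 76.7 CPM.

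Among genes for small RNA pathways, 12 of 21 Argonaute genes were higher and 1 lower, with a median exon length of 3218 bases; the length-adjusted fit gave 7 and 6. The gene sago-1, a secondary Argonaute, was at 56.7, 56.7 and 59.2 CPM against 29.6, 30.4 and 30.9 CPM (log2 0.93, SE 0.0632, adjusted p = 1.87e-06). The Piwi family gene prg-2 was higher by 0.86. Both remained higher in the length-adjusted fit, at 0.70 and 0.69. Germ granule genes had 8 higher (26.7%) and 6 lower (20%) of 30, beside 21.1% and 20.8% of all genes tested. The length-adjusted fit gave 4 and 16, and 4 or 5 were higher without any one library other than fbf-2 replicate 3. The P granule helicase gene glh-1 was higher by 0.59.

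Core histone genes, with a median length of 411 bases, had 15 lower and 0 higher of 25, and 11 and 0 in the length-adjusted fit. Their mRNAs lack poly(A) tails, and the label of total or polyA RNA splits these groups. Core histone genes took 0.0436 to 0.0454% of counts in fbf-1, 0.0542 to 0.0742% in fbf-2, 0.043 to 0.0621% in WT and 0.041 to 0.0428% in 3xlnc. The part of the RNA label in this result was not tested. Ribosomal protein genes had 10 lower (12.3%) and 0 higher of 81 and turned to 2 lower and 37 higher in the length-adjusted fit, so their direction depends on the fit; 25 were lower without fbf-2 replicate 3. Transcripts of mitochondrial DNA had 7 lower (58.3%) and 0 higher of 12, and 4 and 0 after adjustment. Their summed level overlapped between the groups, at 7110 to 10400 CPM in fbf-1 and 8420 to 10000 CPM in fbf-2. The complex I subunit gene nduo-6 was at 43.3, 35.5 and 33.4 CPM against 79.5, 73.8 and 74.8 CPM (log2 -1.02, adjusted p = 1.36e-05).

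**Figure D4:**
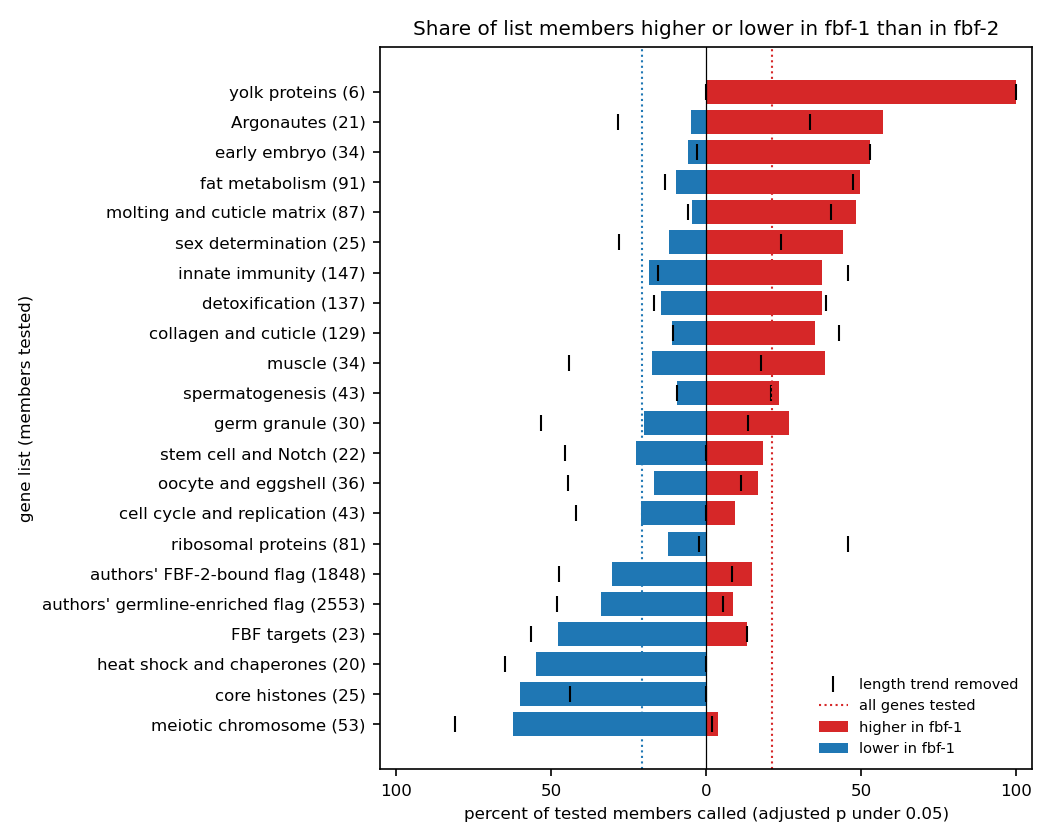
Percent of tested members of 22 gene lists that were higher (right) or lower (left) in fbf-1 than in fbf-2 at an adjusted p under 0.05, with ticks for the length-adjusted fit and dotted lines for all genes tested (21.1% higher and 20.8% lower). Meiotic chromosome and heat shock genes lie to the left and yolk, fat metabolism and molting genes to the right in both fits, while the ticks of ribosomal protein genes cross over.

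The genes on chromosome X stood apart from those on autosomes. Of 1942 genes tested on X, 626 were higher (32.2%) and 161 lower (8.29%), with a median log2 fold change of 0.19. On chromosomes I to V, at most 22.2% were higher and the medians lay between -0.0318 and 0.0594. Germline-enriched genes are rare on X, at 49 of the 1942. Among genes without that flag, the median was 0.197 on X and 0.0494 on autosomes, so the gap was also present among genes not called germline-enriched. The length-adjusted fit gave 28.8% higher on X and a median of 0.145. Between fbf-1 3xlnc and 3xlnc the median on X was -0.0829.

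Among the largest rises, the genes pud-3 and pud-4, named for proteins that are more abundant in daf-2 insulin receptor mutants, lie near each other on chromosome V (2324634 to 2325152 and 2326678 to 2327282). In fbf-1 pud-3 was at 655, 651 and 667 CPM, in fbf-2 at 39.9, 31.1 and 40.7 CPM and in WT at 509, 215 and 279 CPM (log2 4.14, SE 0.0989, adjusted p = 1.08e-09). The fold change of pud-4 was 4.31. In both genes the fbf-2 libraries lay below every other library of the series. The other large rises were the carboxylesterase family gene cest-1 (3.41), F57H12.6 (3.24), the collagen gene col-43 (3.20), ugt-43 (2.92), the ferroportin family gene fpn-1.2 (2.91) and msp-36. For fpn-1.2 the fbf-2 libraries were at 0.774, 0.949 and 0.761 CPM and all 12 other libraries at 5.64 to 8.34 CPM.

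Among the largest falls, F56A4.3, at 2453414 to 2456147 on chromosome V, was without a count (0) in fbf-1 and stood at 21.9, 19.4 and 21.9 CPM in fbf-2. Against a floor of 3 counts per group it was at least 581-fold lower, and it also had 0 counts in WT. It was present at 3.83 to 5.11 CPM in fbf-1 3xlnc and at 3.51 to 4.99 CPM in 3xlnc. The pseudogene fbxa-193 differed by -6.03 and the neighbouring F-box gene fbxa-192 by -4.20. In fbf-1 fbxa-192 was at 0.434, 0.514 and 0.56 CPM, against 9.25, 9.89 and 9.22 CPM in fbf-2 and 6.81 to 9.27 CPM in WT. The nematode-specific peptide gene nspe-7 differed by -4.71 and the lincRNA gene Y71F9AM.9 by -4.09. The polo-like kinase gene plk-3, flagged as germline-enriched and FBF-2-bound, was at 70.3, 61.9 and 60.8 CPM in fbf-1, 442, 438 and 434 CPM in fbf-2 and 338 to 442 CPM in WT (log2 -2.76, SE 0.0736, adjusted p = 1.8e-09). Here WT and fbf-2 overlapped and fbf-1 was apart. The choline kinase gene ckb-2 gave the other order: 16.8, 14.7 and 17.5 CPM in fbf-1, 12.2 to 19.9 CPM in WT, and 77.1, 65.9 and 71.3 CPM in fbf-2 (log2 -2.12).

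Set beside the other strains, differences of both kinds were present. WT means lay nearer fbf-1 than fbf-2 for 362 of the 554 genes at least 2-fold higher in fbf-1 (65.3%) and for 141 of the 251 at least 2-fold lower (56.2%). For all 2812 lower genes the share was 79.6%, and for all 2849 higher genes 65.7%. The shares in this paragraph rest on group means, and the WT libraries were less uniform. All 3 WT libraries lay nearer fbf-1 for 1098 of the 2812 lower and 969 of the 2849 higher genes. All 3 lay nearer fbf-2 for 240 and 328. Among the at least 2-fold genes, all 3 lay nearer fbf-1 for 227 higher and 81 lower ones, and nearer fbf-2 for 89 and 57. The fbf-1 3xlnc strain, which carries the fbf-1 mutation and the polyA RNA label, lay nearer fbf-1 for 78.3% and 72.5% of the at least 2-fold higher and lower genes. The 3xlnc strain lay nearer fbf-1 for 67.7% of the higher and 40.2% of the lower ones.

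A second comparison, fbf-1 3xlnc over 3xlnc, carries the fbf-1 mutation and the RNA label in the same arrangement, has intact fbf-2 on both sides and shares no library with the first. It called 2508 genes higher (17.4%) and 2142 lower (14.8%) of 14429. Single libraries moved these counts: 1183 were higher without fbf-1 3xlnc replicate 3, 1486 without its replicate 2 and 1669 without 3xlnc replicate 3, while 1344 were lower without fbf-1 3xlnc replicate 2 and 3439 without its replicate 1. Over 13399 genes tested in both, the 2 sets of log2 fold changes correlated at 0.249 (Pearson) and 0.164 (Spearman), as a description across genes. Of 231 genes at least 2-fold lower in fbf-1 than in fbf-2 and tested in both, 124 were also called lower (53.7%) and 4 were called higher. Of 536 at least 2-fold higher, 175 were also called higher (32.6%) and 70 lower (13.1%).

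At least 2-fold differences in one direction were shared by 61 genes that were higher and 83 that were lower in both comparisons. In the other pair alone, 169 genes were at least 2-fold higher (1.17%) and 633 lower (4.39%). The gene sdc-3 was at 123 to 125 CPM in fbf-1 3xlnc and 21.1 to 28.7 CPM in 3xlnc (log2 2.27), close to its values in the single mutants. For plk-3 the levels were 30.1 to 38.7 and 309 to 350 CPM (log2 -3.27), and xol-1 was higher by 1.63. In these 3 genes fbf-1 and fbf-1 3xlnc lay on one side and WT, fbf-2 and 3xlnc on the other, a split that genotype, label and deposit share. Several shared falls were clustered, chosen for mention after their values were seen. The genes fbxa-191, fbxa-192, fbxa-193, fbxa-129 and fbxa-108 lie between 17637982 and 17659385 on chromosome V and differed by -1.94 to -6.03 in the single mutants and by -2.23 to -6.62 in the other pair. On chromosome II, nspe-2, nspe-1, Y38E10A.14, nspe-7 and nspe-5 lie between 12619173 and 12629384 and differed by -1.62 to -4.71 and by -1.63 to -5.21. Of the 83 shared falls, 34 were on chromosome V and 25 on chromosome II, where 2528 and 2370 of the tested genes lie. The heat shock gene hsp-16.2 was also lower in both: it was at 18.5, 5.2 and 6.88 CPM in 3xlnc and at most 0.114 CPM in fbf-1 3xlnc.

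**Figure D5:**
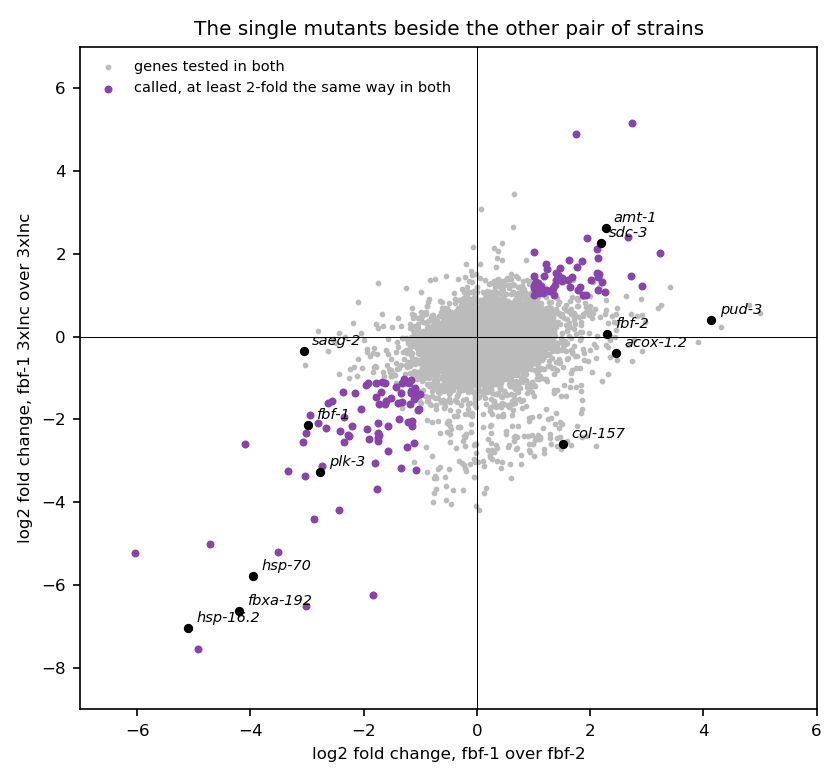
Log2 fold change of fbf-1 over fbf-2 (horizontal axis) against fbf-1 3xlnc over 3xlnc (vertical axis) for genes tested in both, with the 144 genes called and at least 2-fold in the same direction in purple and named genes in black. Genes such as plk-3 and sdc-3 lie near the diagonal, while pud-3, acox-1.2 and saeg-2 lie along the horizontal axis; msp-36 and F56A4.3 fall outside the drawn range.

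The difference between the 2 comparisons was tested directly as a contrast over the 12 libraries, in which a shift that multiplies all libraries of an RNA label alike drops out. It was positive for 2438 genes (16.5%) and negative for 2787 (18.9%) of 14732, and at least 2-fold for 873 (5.93%) and 175 (1.19%). With upper-quartile scaling the split was 3428 and 1441 and the median over all genes moved from 0.0321 to 0.198. FBF targets other than the fbf genes showed 17 negative and 1 positive of 21: 10 of 21 were lower and 2 higher in fbf-1 against fbf-2, while 12 were higher and 0 lower in fbf-1 3xlnc against 3xlnc. For lip-1 the difference was -0.59 (adjusted p = 0.00016), and for puf-8 -0.63 (adjusted p = 0.000124). Meiotic chromosome genes were negative at 38 of 53 and positive at 1. In the other pair 20 of these 53 genes were higher and 1 lower. This direction was not particular to those lists. Genes with the germline-enriched flag were negative at 1179 of 2782 and positive at 101. In the other pair 844 of 2781 flagged genes were higher and 107 lower. Cell cycle and replication genes were negative at 34 of 43 and positive at 0, and oocyte and eggshell genes at 25 and 2 of 36. Spermatogenesis genes had 3 negative and 5 positive of 53. The counts of FBF targets and meiotic chromosome genes with a negative difference stood at 18 and 51 in the length-adjusted fit, and that of FBF targets at 12 with upper-quartile scaling.

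Some genes of the first comparison kept most of their difference after the other pair was subtracted. For fbf-2 it was 2.21 (adjusted p = 3.12e-08), for pud-3 3.71 (adjusted p = 5.52e-08), for acox-1.2 2.84 (adjusted p = 1.61e-09) and for saeg-2, named as a suppressor of activated egl-4, -2.74 (adjusted p = 5.52e-08). In fbf-2 saeg-2 was at 47.2, 39 and 37.6 CPM, and in the 12 other libraries at 4.65 to 6.90 CPM. Yolk genes were positive at 6 of 6, and fat metabolism genes at 38 of 94 with 11 negative. Collagen genes were positive at 98 of 135 and negative at 2; in the other pair they were mostly lower, at 96 of 131, with 7 higher. For plk-3 (0.47), sdc-3 (-0.11) and tra-3 (0.16) the difference was small beside the change in each pair, and of the 3 it passed for plk-3 (adjusted p = 0.00601). The difference of sdc-3 passed in the length-adjusted fit (-0.43, adjusted p = 0.000762), and that of tra-3 with upper-quartile scaling (0.32, adjusted p = 0.00659) and with at least 10 counts in every library (0.21, adjusted p = 0.0336).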

How the data were processed

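Adult worm RNA was extracted with TRIzol and a column kit and made into libraries with an mRNA kit, per the labels' protocols. STAR 2.7.9a, featureCounts, Subread 2.0.1 and WBcel235 are named in the submitters' processing notes; strand setting, annotation release and handling of multiply matching reads are not stated in those sources. The authors deposited raw counts per gene for 46904 genes in 3 tables, joined here by gene identifier; 46817 matched the WBcel235 annotation, release 115, which gave positions and exon lengths (the union of exons). The authors deposited TRUE or FALSE flags beside the counts. A further 18 columns of normalised values were not used.

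Counts were tested in R 4.3.3 with edgeR 4.0.16 (filterByExpr, TMM, glmQLFit, glmQLFTest) on the 6 libraries of a comparison, or the 12 of the difference between comparisons, without a batch term, which could not be fitted. P-values were Benjamini-Hochberg adjusted over all genes tested. Standard errors (SE) refer to log2 fold changes, and the procedure was tested on simulated data. Alternatives were RLE and upper-quartile scaling, 2 count filters, DESeq2 1.42.0, limma-voom (limma 3.58.1), protein-coding genes only, all 15 libraries in one fit, a replicate block and leaving out each library; a length-adjusted fit (a lowess trend of log2 level on log2 exon length per library, span 0.3, as an offset) was added after the data were seen. Floors and intervals cover counting error only.

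The members, the 38 gene lists and the tests were chosen with earlier results of these data known. Named genes are the fbf and other PUF genes, the listed FBF targets, the 3 linc genes, the 8 largest rises and falls among called genes that averaged at least 50 counts and did not overlap between groups, the 5 largest each way in the difference, and up to 3 members of each list with the smallest adjusted p; others were chosen after their values were seen. No pair of replicate fbf-1 or fbf-2 libraries was a duplicate by its counts. Replicates of the other groups were not checked for this. Same-numbered fbf-1 and fbf-2 libraries did not deviate together, so they were not treated as pairs.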

Additional observations from a re-analysis of the deposited data

Results flagged for a closer look

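The 10 genes below had the largest differences between the 2 comparisons, each past an adjusted p under 0.05 in the edgeR contrast over 12 libraries. Negative differences, fbf-1 over fbf-2 less fbf-1 3xlnc over 3xlnc on the log2 scale, were -12 for F56A4.3, -2.97 for Y55F3AM.11, -2.83 for the superoxide dismutase gene sod-3, -2.74 for saeg-2 and -2.57 for C24B5.4. The fitted value of F56A4.3 depends on the prior count because fbf-1 had 0 counts. For sod-3 the first comparison gave 0.66 and the other 3.46, where 3xlnc libraries were at 0.259 to 0.292 CPM and all other libraries at 2.45 to 5.01 CPM. C24B5.4 was low in fbf-1 alone, at 0.468 to 0.631 CPM, against 2.37 to 5.46 CPM in the 12 other libraries.

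Positive differences were 4.1 for col-157, 4.1 for dpy-13, 4.21 for col-137, 4.25 for E01G4.6 and 9.89 for msp-36. The collagen genes col-157, dpy-13 and col-137 differed by 1.52, 1.60 and 0.04 in the first comparison and by -2.60, -2.52 and -4.19 in the other. Their levels varied within fbf-1 3xlnc: dpy-13 was at 16.8 CPM in 1 library and at 2.05 and 1.92 CPM in the others. The call of col-157 in the first comparison was lost with DESeq2 (adjusted p = 0.0536), with all 15 libraries in the fit (0.0627) and without fbf-1 replicate 2 (0.066), and that of dpy-13 with all 15 libraries (0.0801). In the other comparison the call of dpy-13 was lost without 3xlnc replicate 1 (adjusted p = 0.0542) or 3 (0.0612), and that of E01G4.6 without 3xlnc replicate 1 (0.0615).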

How the results depend on the processing

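All 16 alternatives left the counts of genes higher and lower in fbf-1 than in fbf-2 within 1.5 times of the reported 2849 and 2812; leaving out 1 library gave 2144 to 2768 higher and 2110 to 3250 lower. The replicate block gave 2929 and 2752, DESeq2 2399 and 2717, and limma-voom 2868 and 2802; same-numbered libraries share only a number (correlations of their deviations -0.0252, 0.143 and -0.027). No paired analysis was possible for the other comparison or the difference because the columns of fbf-1 3xlnc carry no usable numbers. For fbf-1 3xlnc over 3xlnc, 1413 genes were higher with all 15 libraries in the fit, against 2508. Leaving out 1 library there gave 1183 to 3093 higher and 1344 to 3439 lower, with fewest higher without fbf-1 3xlnc replicate 3, fewest lower without its replicate 2 and most lower without its replicate 1. For the difference between the comparisons, 1441 genes were negative with upper-quartile scaling and 4377 in the length-adjusted fit, against 2787; without 1 library the range was 1958 to 3061 positive and 2153 to 3172 negative. The length-adjusted fit turned the direction of gld-2 to -0.12 and of gld-3 to -0.23 in the first comparison, of rpl-24.2 to 0.0067 in the other, and of let-711 to -0.30 in the difference. The cause of these changes was not tested. Values of the named genes, 153 of them tested in the first comparison, were also followed through the alternatives, with 1 entry per gene and alternative. In the first comparison 2382 entries kept their direction and side of the threshold, 40 lost a call, 10 gained one and 2 turned. These entries do not cover the other genes called. Genes near 0 counts are limited by depth.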
